A study of Mus musculus with 8 samples.

Results

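The cytosolic ribosomal protein genes of the mouse were followed in PyMT-1099 cells, a mouse breast tumour line. They were chosen by symbol alone: every gene named Rpl or Rps plus a number, with the stalk proteins Rplp0 to Rplp2, leaving out symbols of listed pseudogenes and numbered gene models. The rule takes 88 of the 55450 gene identifiers in the count files, 53 of the large subunit and 35 of the small subunit. The annotation (GENCODE M21, GRCm38) calls 82 of them protein coding. The other 6 (Rps4l, Rps12l1, Rpl32l, Rpl6l, Rps3a3 and Rps3a2) are annotated as processed pseudogenes although their symbols fit the rule. Enough reads for testing were found for 80 of the 88, 48 large and 32 small subunit genes, among 14641 genes tested in all. The 8 left untested were Rpl3l, Rpl6l, Rpl10l, Rpl32l, Rpl39l, Rps3a2, Rps12l1 and Rps29, and of these only Rps29 encodes a standard subunit of the ribosome in most tissues. Rps29 had 4 and 4 counts in untreated parental cells, 3 and 2 with TGF-β, 7 and 7 in untreated knockout cells and 5 and 8 in knockout cells with TGF-β.

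As background, cytosolic ribosomal proteins assemble with ribosomal RNA in the nucleolus into the small subunit, which decodes the message, and the large subunit, which joins amino acids. Their messages are abundant in growing cells and begin with a cytosine followed by a run of pyrimidines, the terminal oligopyrimidine (TOP) tract, through which LARP1 and mTOR control their translation. The genes have left many processed pseudogene copies across mammalian genomes, so short reads from one gene can match other places as well.

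Polyadenylated RNA was sequenced from parental cells and from cells with a knockout of Agps, the peroxisomal enzyme of ether lipid synthesis. Each line was grown in high glucose DMEM with 10% fetal bovine serum, 1% glutamine and 1% penicillin and streptomycin, and was left untreated or kept for 10 days in TGF-β at 2 ng/ml, and each of the 4 groups has 2 libraries. Names of the knockout libraries carry the tag SCC10, which the labels do not explain, so whether the line is a single clone is not given in the sources used here. Nor is it given whether the replicates are separate cultures, so p-values measure only the spread between these libraries. Since these are bulk samples, fewer cells of a type and less RNA per cell cannot be told apart.

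Library totals ran from 17007268 to 21311831 counts. Agps stood at 357 and 329.8 CPM (counts scaled by library size with TMM factors) in untreated parental cells, 265 and 266 with TGF-β, 32.9 and 29.3 in untreated knockout cells and 43.9 and 35.6 in knockout cells with TGF-β, so the libraries match their labels. Of 7 epithelial markers, Cdh1, Krt8, Krt18 and Krt19 were detected in all libraries, while Epcam and Cldn7 had 0 counts in all 8 and Cldn3 had 1 count in 1 library. Of the 5 immune, 4 endothelial and 4 adipocyte markers, Cd68 (18 to 213 counts), Cdh5 (0 to 1426) and Pecam1 (5 to 18) were above 10 counts in some library, the first and second higher with TGF-β in both lines. Their part in the results was not tested.

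The annotated starts of the members were searched for such tracts, and the entries below belong to some of the genes whose levels differed between groups in the sections that follow. RefSeq promoter entries (GRCm38.p6) were matched by symbol for 63 of the 88 members. Each line runs from 40 bases before to 20 bases from the annotated start, 5′ to 3′ on the gene's own strand, taken from the entry nearest the gene's annotated start. Capitals mark a C followed by 5 or more C or T within 20 bases of the start, which is position 41 of the line. Where a line holds several such tracts, only the one beginning nearest the start is marked. The lines are a selection from the 12 matched members called in any comparison, so they give no share with a tract. Not shown are Rpl27, Rpl7l1 and Rplp0, which have no tract in their entry, and Rps27l, which has a tract.
Rps24: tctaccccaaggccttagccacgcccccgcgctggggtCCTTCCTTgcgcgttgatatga
Rps18: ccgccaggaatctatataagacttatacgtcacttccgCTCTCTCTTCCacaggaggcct
Rpl15: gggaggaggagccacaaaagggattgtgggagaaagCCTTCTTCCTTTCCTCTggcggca
Rpl13: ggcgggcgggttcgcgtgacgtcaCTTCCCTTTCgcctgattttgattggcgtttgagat
Rpl5: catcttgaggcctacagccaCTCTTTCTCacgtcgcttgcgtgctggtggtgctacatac
Rpl39: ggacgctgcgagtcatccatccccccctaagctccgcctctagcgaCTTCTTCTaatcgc
Rpl10a: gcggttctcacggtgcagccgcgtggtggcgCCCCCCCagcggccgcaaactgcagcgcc
Rpl19: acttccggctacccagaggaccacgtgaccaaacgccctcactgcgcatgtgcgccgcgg
The stretches lie at chr14:24490638-24490697 (+ strand) for Rps24, chr17:33955646-33955705 (- strand) for Rps18, chr14:18270967-18271026 (- strand) for Rpl15 and chr8:123102310-123102369 (+ strand) for Rpl13. Those of Rpl5, Rpl39, Rpl10a and Rpl19 lie at chr5:107900488-107900547 (+ strand), chrX:37085203-37085262 (- strand), chr17:28328431-28328490 (+ strand) and chr11:98026670-98026729 (+ strand). In Rps24, Rps18 and Rpl15 a mixed C and T tract spans the annotated start, while the marked tract of Rpl39 begins 6 bases downstream of it. Rpl39 also has an unmarked tract upstream of the start, in lower case. The tracts of Rpl13, Rpl5 and Rpl10a end before the start, that of Rpl10a being a run of C only. Rpl19 has none in the window of the entry shown, while its other promoter entry does have such a tract.

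In the entry nearest the gene's annotated start, such a tract was found within the 40 bases around the start in 39 of the 63 matched members (61.9%), and in 30 of these it spans or follows the start. Genes can have several promoter entries: among genes with 1 entry, 34 of 53 members (64.2%) and 6663 of 22862 genes (29.1%) had the tract. Counting a match in any entry of a gene, as in the counts that follow, 42 members (66.7%) had it on the transcript strand, against 8859 of 27025 genes in the promoter table (32.8%). On the opposite strand it was found in 11 members (17.5%) and in 35.7% of all genes. The more exact letters CTTTNC, part of which can lie inside such a tract, were found on the transcript strand in 15 members (23.8%) against 5.67% of all genes, and on the opposite strand in 2 members (3.17%) against 5.54%. Mitochondrial ribosomal protein genes, whose products serve the ribosome of the mitochondrion, had the C and T tract in 26 of 69 (37.7%) and ribosome biogenesis factors in 7 of 40 (17.5%). In the nearest entry 8 of the 12 matched members called in any comparison below had the tract, as had 31 of the other 51. A match here is a description of letters near an annotated start and not a mapped site.

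Together the 88 members held a small share of the counts. It was 0.796% and 0.829% in untreated parental cells, 0.781% and 0.758% with TGF-β, 0.811% and 0.861% in untreated knockout cells and 0.759% and 0.916% in knockout cells with TGF-β. The groups overlap, and the knockout libraries with TGF-β hold both the second lowest share and the highest. Those 2 libraries also differ in the share of mitochondrially encoded counts, 3.96% and 2.36%, in the opposite order, and its part in the members' share was not tested. Over all 8 libraries the mitochondrially encoded share ran from 2.36% to 4.31%. Annotated pseudogene copies of members elsewhere in the genome held a further 0.0570% to 0.0715%.

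Levels per length spanned about 3 orders of magnitude, while a ribosome carries 1 copy of nearly all of these proteins. As a mean of RPKM, which is CPM divided by the exonic length in kilobases, over the 8 libraries, Rpl4 (627) and Rpl8 (619), proteins of the large subunit core, were highest. They were followed by the stalk protein Rplp1 (376), Rps15 (306) and the stalk base Rplp0 (283). The lowest RPKM were those of Rpl24 (0.601), Rpl29 (0.654), Rps6 (0.708), the substrate of S6 kinase, Rps16 (0.978) and Rps10 (1.06).

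Rpl4 stood at 1184 and 1267 CPM in untreated parental cells, 1101 and 1185 with TGF-β, 1371 and 1493 in untreated knockout cells and 1199 and 1265 in knockout cells with TGF-β. Rps6 stood at 1.05 and 0.937, 1.32 and 1.37, 0.869 and 0.974 and 1.01 and 1.44 CPM in the same groups. Neither gene was called in any comparison. Before division by length, the 5 tested members of highest CPM were Rpl4, Rpl8, Rps3, Rplp0 and Rpl7, and the 5 of lowest CPM were Rpl24, Rpl29, Rps6, Rpl38 and Rps16.

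Members that share more of their sequence with other genes had lower levels. For each member the share of 50-base words of its main transcript that also occur in transcripts of other genes was computed, as a measure of how far short reads can be placed. Over the 80 tested members, log2 mean RPKM and this share had a Pearson's r of -0.62 and a Spearman's rho of -0.638, a description over genes that share libraries, depth and counting. Rpl8 with 7.86% shared words had 619 RPKM, and Rps6 with 84.6% had 0.708. There were exceptions on both sides: Rplp1 reached 376 RPKM with 60.00% shared words, and Rps16 only 0.978 with 41.6%. How reads with several matches were counted is not given in the sources used here, so levels of different members are not comparable as amounts of message.

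**Figure D1:**
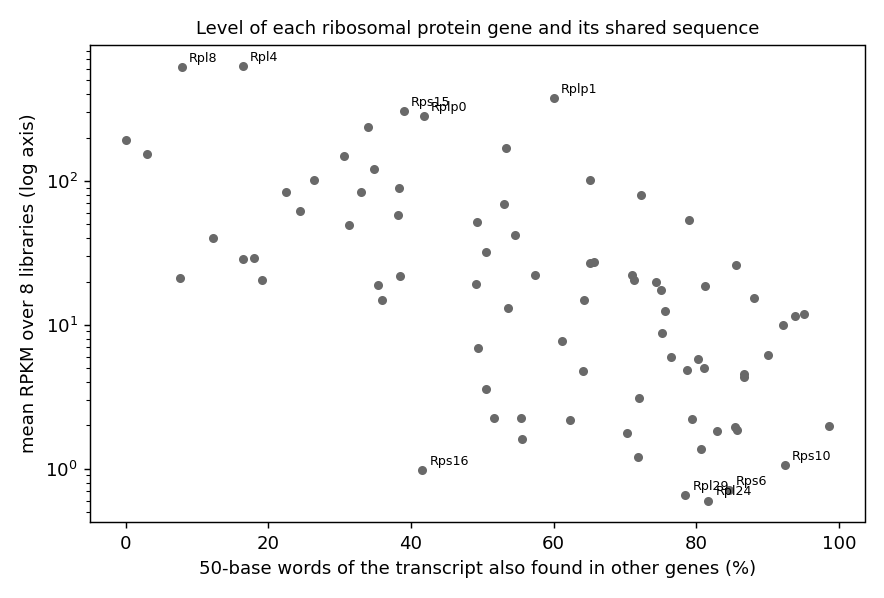
Mean RPKM over 8 libraries (log axis) of each of the 80 tested members against the percentage of 50-base words of its main transcript found in transcripts of other genes, 1 point per gene. Genes of the highest and lowest level are named: Rpl4 and Rpl8 lie at the upper left and Rpl24, Rpl29, Rps6 and Rps10 at the lower right (Pearson's r -0.62).

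The median member lay -0.06 from its own mean log2 CPM in untreated parental replicate 1 and 0.16 above it in TGF-β-treated knockout replicate 2, the library with the highest share of member counts. The other TGF-β-treated knockout library lay -0.08 from it, so the 2 libraries of that group are the ends of the range. A different profile, the median log2 CPM over members in each library, is set by the genes of middle level. This median profile ran from 4.93 in TGF-β-treated knockout replicate 1 to 5.36 in TGF-β-treated parental replicate 1. It stood at 5.31 and 5.30 in untreated parental and 5.03 and 5.03 in untreated knockout cells. Genes most like this median profile over the 8 libraries, by Pearson's r, included Rpl37 (0.90), Rpl13 (0.87), Rpl36 (0.83) and Rpl15 (0.81). Genes least like it were Rpl3 (-0.72), Rpl23 (-0.66), Rpl7 (-0.61), Rpl17 (-0.51) and Rpl4 (-0.47).

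**Figure D2:**
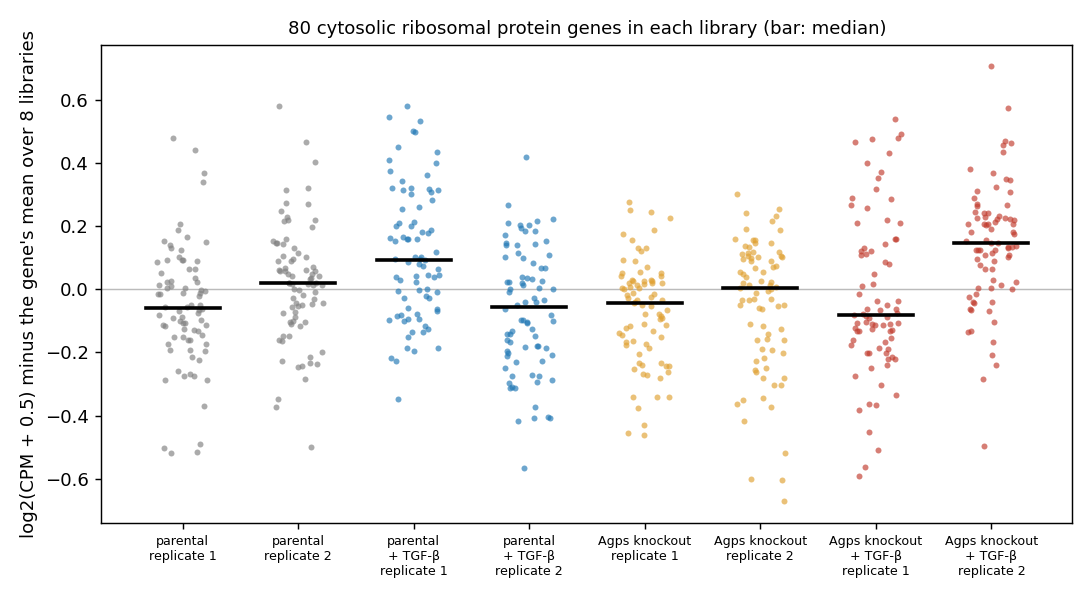
Log2(CPM + 0.5) of each of the 80 tested members minus that gene's mean over the 8 libraries, 1 point per gene and library, with the median as a bar. The medians of the 2 TGF-β-treated knockout libraries are the lowest and the highest of the 8, and points of all libraries overlap.

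In parental cells given TGF-β, few ribosomal protein genes were called, and those that were rose. Of the 80 tested members 5 rose and 0 fell at an adjusted p under 0.05 in edgeR's quasi-likelihood test (6.25%), against 42.5% of all 14641 genes called in this comparison, 21.3% higher and 21.2% lower. An unadjusted p under 0.05 was reached by 14 members. The median log2 fold change was -0.0014 over the members and 0.0080 over all genes. The 95% interval of the change lay within 2-fold in either direction for 72 of the 80 members (90%) and for 59.2% of all genes, so a change of more than 2-fold was outside the interval of most members. The count of members called was 2 with DESeq2 or without untreated parental replicate 1, 3 without replicate 2 of that group, and 9 with upper quartile scaling or with no filter on low counts.

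Rps24, a small subunit protein mutated in some Diamond-Blackfan anaemia families, stood at 105 and 114 CPM in untreated parental cells and 148 and 147 with TGF-β. The treated libraries were both higher, and Rps24 rose (log2 fold change 0.43, SE 0.10, adjusted p = 0.00388), a call that held under each of the 17 alternatives run for it. Rpl23a, which binds targeting factors at the exit tunnel, rose from 0.896 and 1.05 to 2.38 and 1.73 CPM (log2 fold change 1.08, SE 0.30, adjusted p = 0.0136). At this low level, of the exons of Rpl23a 59.7% are overlapped on the opposite strand by Tlcd1, whose own log2 fold change was -0.93, and without knowing the strand setting reads of the pair cannot be told apart. The Rpl23a call was lost with DESeq2 (adjusted p = 0.107), without untreated parental replicate 1 (adjusted p = 0.0799) and without TGF-β-treated parental replicate 1 (adjusted p = 0.141).

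Rpl19, a large subunit protein, stood at 1.74 and 1.82 CPM without and 3.55 and 2.50 with TGF-β (log2 fold change 0.77, SE 0.26, adjusted p = 0.0345). Rpl27, also of the large subunit and on the Diamond-Blackfan list, stood at 6.22 and 6.03 CPM without and 9.06 and 8.22 with it (log2 fold change 0.50, SE 0.17, adjusted p = 0.0339). Rpl3, which lies close to the peptidyl transferase centre, stood at 67.5 and 67.6 CPM without and 84.8 and 88.6 with it (log2 fold change 0.36, SE 0.12, adjusted p = 0.0367). In all 3 genes both treated libraries were above both untreated ones. These calls were less firm: that of Rpl19 was lost with DESeq2, with only the compared groups fitted, without either untreated parental library in turn and without TGF-β-treated parental replicate 1 (adjusted p from 0.0506 to 0.299), that of Rpl27 with no filter on low counts, with DESeq2, without either untreated parental library in turn and without either TGF-β-treated parental library in turn (adjusted p from 0.0696 to 0.183) and that of Rpl3 without either untreated parental library in turn and without either TGF-β-treated parental library in turn (adjusted p from 0.0953 to 0.170).

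Of the 5 genes that rose, Rpl23a, Rpl19, Rpl27 and Rpl3 share 64.1% to 85.7% of their 50-base words with other genes, and Rps24 19.1%. Among the 28 tested members with under 50% shared words, only Rps24 was called and the median log2 fold change was -0.08. Among the 52 with 50% or more, 4 rose and the median was 0.05. Members of low level had the higher median: the 22 with an average log2 CPM under 3 had a median of 0.35, and the 58 others -0.05. Over the 80 members the TGF-β change had a Pearson's r of 0.37 with the share of shared words and a Spearman's rho of -0.433 with the average level, both descriptions.

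In knockout cells given TGF-β, 7 members rose and 1 fell (8 of 80, 10.0%) against 41.4% of all genes called, 20.9% higher and 20.6% lower, and 16 had an unadjusted p under 0.05. The median was 0.08 over the members and -0.0002 over all genes. That median rests on 1 library: without TGF-β-treated knockout replicate 2 it was -0.09, and without replicate 1 of that group 0.21. The count of 8 was 3 without untreated knockout replicate 2. Intervals of 67 members (83.8%) lay within 2-fold, against 60.5% of all genes.

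Rpl30, a large subunit protein, stood at 12.8 and 11.3 CPM in untreated knockout cells and 24.3 and 19.3 with TGF-β. It rose (log2 fold change 0.86, SE 0.15, adjusted p = 7.34e-04), and the call held under each alternative run for it. In parental cells it went from 16.1 and 17.05 to 23.3 and 19.4 CPM (log2 fold change 0.37, SE 0.15, adjusted p = 0.0681), and it was the only member with an unadjusted p under 0.05 for the difference between the lines, 0.49 on the log2 scale (adjusted p = 0.331). On the opposite strand 20.4% of the exons of Rpl30 are overlapped by D730044K07Rik. That gene had a log2 fold change of 0.79 in knockout (adjusted p = 0.174) and 0.96 in parental cells (adjusted p = 0.0786), with no call. Without knowing the strand setting, reads of this pair cannot be told apart in the overlap.

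Rpl23a was at 1.06 and 0.882 CPM in untreated and 2.38 and 2.22 in treated knockout cells (log2 fold change 1.24, SE 0.29, adjusted p = 0.00486), and this call too was kept in every alternative. The overlapping Tlcd1 had -0.21 (adjusted p = 0.408) on the log2 scale there. Rps24 was at 108 and 123 CPM in untreated and 135 and 149 in treated cells (log2 fold change 0.30, SE 0.10, adjusted p = 0.0249), with the call lost with only the compared groups fitted (adjusted p = 0.0502), without untreated knockout replicate 1 (adjusted p = 0.184) and without TGF-β-treated knockout replicate 2 (adjusted p = 0.152). These 2 genes, and no other member, were called in both lines, in both cases higher with TGF-β and with no overlap between treated and untreated libraries.

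Rps18, of the head of the small subunit, stood at 8.55 and 6.64 CPM without and 14.8 and 9.37 with TGF-β (log2 fold change 0.67, SE 0.23, adjusted p = 0.0346). Rpl10a, of the L1 stalk where spent transfer RNA leaves, stood at 32.4 and 22.8 CPM without and 51.2 and 36.03 with it (log2 fold change 0.66, SE 0.19, adjusted p = 0.0150). In both genes replicate 1 was the higher library in either group, and the untreated and treated libraries do not overlap. The Rps18 call was lost without untreated knockout replicate 2 (adjusted p = 0.174) and without TGF-β-treated knockout replicate 1 (adjusted p = 0.381), and that of Rpl10a without untreated knockout replicate 2 (adjusted p = 0.106) and without TGF-β-treated knockout replicate 1 (adjusted p = 0.196).

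The stalk base Rplp0, often used as a reference gene, stood at 427 and 432 CPM without and 473 and 571 with TGF-β (log2 fold change 0.28, SE 0.10, adjusted p = 0.0328). Rpl7l1, a paralogue of Rpl7, stood at 145 and 119.8 CPM without and 161 and 163 with it (log2 fold change 0.30, SE 0.10, adjusted p = 0.0381). Both are small rises whose call depends on the setting: that of Rplp0 was lost with scaling by library totals only, with only the compared groups fitted, without either TGF-β-treated parental library in turn, without either untreated knockout library in turn and without TGF-β-treated knockout replicate 2 (adjusted p from 0.0527 to 0.265), and that of Rpl7l1 with scaling by library totals only, with only the compared groups fitted, without either TGF-β-treated parental library in turn, without untreated knockout replicate 2 and without either TGF-β-treated knockout library in turn (adjusted p from 0.0516 to 0.303). Rps4l, an annotated pseudogene related to Rps4x, was the only member to fall, from 32.1 and 32.3 to 23.6 and 26.1 CPM (log2 fold change -0.38, SE 0.11, adjusted p = 0.0174). The Rps4l call was lost with DESeq2 (adjusted p = 0.0521), without untreated knockout replicate 2 (adjusted p = 0.0600) and without TGF-β-treated knockout replicate 1 (adjusted p = 0.121). Of the 8 members called with TGF-β in knockout cells, Rpl7l1, Rps4l, Rps24 and Rplp0 share 12.2% to 41.8% of their 50-base words with other genes, and Rpl30, Rpl23a, Rps18 and Rpl10a 76.4% to 88.1%.

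The TGF-β changes of the members were not found to differ between the lines. In the test of the difference 0 of 80 members were called, against 2.40% of all genes (1.25% higher, 1.15% lower), with 1 member at an unadjusted p under 0.05. DESeq2 and limma-voom also called 0. The median half-width of the interval of this difference was 0.45 on the log2 scale, and for 65 of the 80 members the interval lay within 2-fold, so smaller differences could not be resolved with 2 libraries a group.

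**Figure D3:**
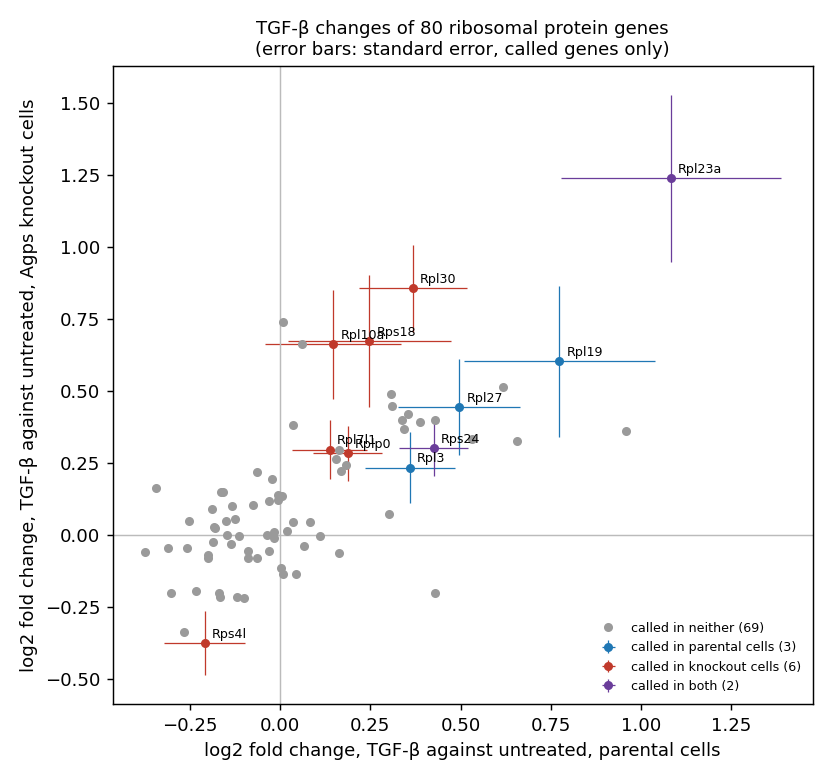
Log2 fold change with TGF-β in parental cells (horizontal axis) and in Agps knockout cells (vertical axis) for the 80 tested members, 1 point per gene, with standard errors on the 11 genes called in either line. Rpl23a and Rps24 are called in both lines, and 69 genes, most of them near 0 on both axes, in neither.

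Without TGF-β, knockout cells had 0 members higher and 4 lower than parental cells (5% of 80), against 13.7% of all genes called, 4.72% higher and 8.94% lower. An unadjusted p under 0.05 was reached by 12 members, and the median over members was 0.0054 against 0.00002 over all genes. With TGF-β, 1 member was higher and 4 lower in knockout cells (6.25% of 80), against 17.9% of all genes called, 6.82% higher and 11.1% lower. The members' median was then 0.08 and that of all genes 0.0061. In each comparison the interval lay within 2-fold for 74 of the 80 members. Without TGF-β the count of members called was 8 with no filter on low counts, and with TGF-β it was 2 without either TGF-β-treated parental library in turn.

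Rpl39, a very short protein of the exit tunnel, stood at 51.5 and 59.7 CPM in untreated parental cells, 49.8 and 47.96 with TGF-β, 28.7 and 32.6 in untreated knockout cells and 27.8 and 32.6 in knockout cells with TGF-β. All 4 knockout libraries lay below all 4 parental ones. Rpl39 was lower both without TGF-β (log2 fold change -0.86, SE 0.12, adjusted p = 7.09e-04) and with it (log2 fold change -0.70, SE 0.12, adjusted p = 0.00236), and both calls held under each alternative run. Few of its 50-base words, 16.5%, occur in other genes.

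Rpl13, a large subunit protein, stood at 20.4 and 19.3 CPM in untreated parental cells, 20.7 and 16.03 with TGF-β, 11.1 and 11.1 in untreated knockout cells and 9.66 and 12.5 in knockout cells with TGF-β. Again all knockout libraries were lower, and Rpl13 was called without (log2 fold change -0.84, SE 0.16, adjusted p = 0.00494) and with TGF-β (log2 fold change -0.73, SE 0.16, adjusted p = 0.00962). The call without TGF-β held under each alternative run, and the one with TGF-β was lost without TGF-β-treated parental replicate 1 (adjusted p = 0.126) and without TGF-β-treated knockout replicate 1 (adjusted p = 0.0936).

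For both of these genes the tested genes nearby on the chromosome were lower as well. Rpl13 lies at chr8:123102350-123105244, where the 97 other tested genes within 5 Mb had a median log2 change of -0.84 in untreated knockout cells, the same as its own -0.84, with 69 called lower and 0 higher. With TGF-β their median was -0.73, that of Rpl13 was -0.73, and 71 were called lower and 0 higher. Over the 809 other tested genes of chromosome 8 the medians were -0.46 and -0.47.

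Rpl39 lies at chrX:37082520-37085402, and its 28 tested neighbours within 5 Mb had a median of -0.69 without and -0.72 with TGF-β, with 21 and 20 called lower and 1 higher in each. The whole of chromosome X had medians of -0.02 and 0.03. On chromosome 3, with medians of -0.28 and -0.30, Rpl34 had -0.32 (adjusted p = 0.0746) and -0.26 (adjusted p = 0.124), near the medians of its 45 neighbours, -0.41 and -0.40. The other tested members of chromosome 3 did not all lie near their neighbours. Rps3a1 had 0.11 and 0.33 (neighbours -0.28 and -0.27) and Rpl22l1 -0.22 and 0.10 (neighbours -0.06 and -0.25). Rps27 had -0.23 and -0.05 (neighbours -0.30 and -0.30). The cause of the lower levels around Rpl13 and Rpl39 was not tested. Whether either gene has a change of its own beyond that of its neighbours cannot be told with these files.

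**Figure D4:**
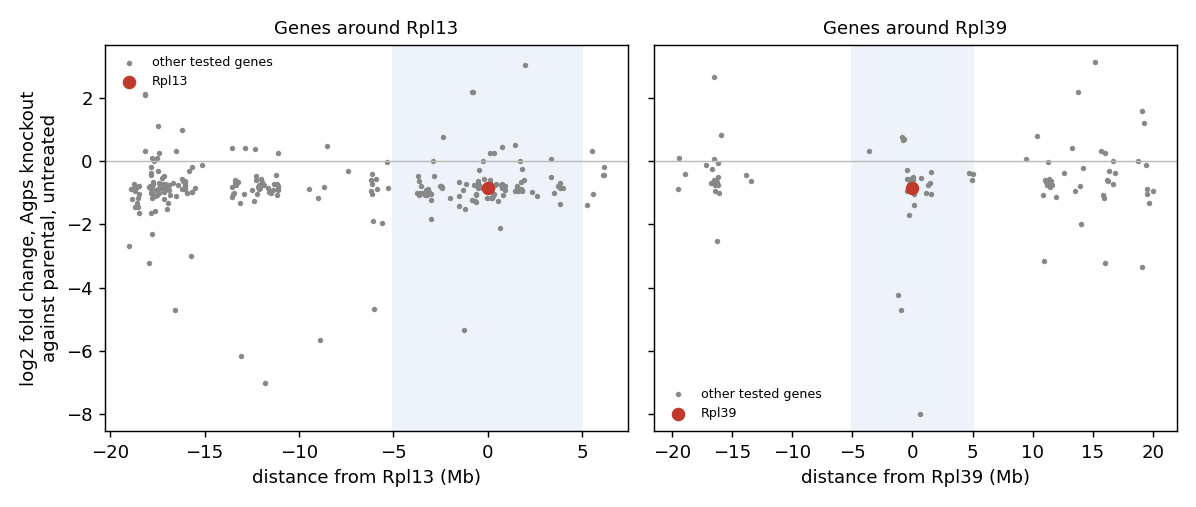
Log2 fold change of untreated Agps knockout against untreated parental cells for all tested genes within 20 Mb of Rpl13 (left) and Rpl39 (right), by distance in Mb, with the member in red and the stretch within 5 Mb shaded. Rpl13 (-0.84) and Rpl39 (-0.86) lie in the middle of neighbours most of which are below 0.

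The genes near the other members called between the lines had medians near 0, from -0.02 around Rps3a3 with TGF-β to 0.12 around Rps27l without it. Rps3a3, an annotated processed pseudogene of Rps3a1, stood at 101 and 92.6 CPM in untreated parental cells, 91.5 and 90.4 with TGF-β, 67.6 and 71.3 in untreated knockout cells and 60.8 and 70.7 in knockout cells with TGF-β. It was lower without (log2 fold change -0.48, SE 0.10, adjusted p = 0.00766) and with TGF-β (log2 fold change -0.47, SE 0.10, adjusted p = 0.00716), all knockout libraries lying below all parental ones. The call without TGF-β held throughout, and the one with TGF-β was lost without TGF-β-treated parental replicate 1 (adjusted p = 0.0653), without TGF-β-treated parental replicate 2 (adjusted p = 0.0547) and without TGF-β-treated knockout replicate 1 (adjusted p = 0.0693).

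Rpl15, needed for processing of ribosomal RNA, stood at 24.7 and 25.8 CPM in untreated parental and 19.6 and 18.9 in untreated knockout cells (log2 fold change -0.39, SE 0.11, adjusted p = 0.0333). The libraries do not overlap, yet the call was lost with upper quartile scaling, with no filter on low counts, with DESeq2, with only the compared groups fitted, without either untreated parental library in turn, without either TGF-β-treated parental library in turn and without either untreated knockout library in turn (adjusted p from 0.0503 to 0.134). With TGF-β it stood at 23.5 and 22.05 CPM in parental and 19.7 and 20.1 in knockout cells, with no call.

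Rpl5, a partner of the 5S ribosomal RNA that can bind Mdm2, stood at 49.1 and 44.2 CPM in parental and 37.1 and 31.1 in knockout cells with TGF-β (log2 fold change -0.45, SE 0.13, adjusted p = 0.0291). Without TGF-β it stood at 51.02 and 61.2 CPM in parental and 41.8 and 44.3 in knockout cells, lower in both knockout libraries but not called (log2 fold change -0.38, SE 0.12, adjusted p = 0.0653). The call with TGF-β was lost without TGF-β-treated parental replicate 1 (adjusted p = 0.211), without TGF-β-treated parental replicate 2 (adjusted p = 0.0733) and without TGF-β-treated knockout replicate 2 (adjusted p = 0.240). Of the exons of Rpl5, 24.3% are overlapped on the opposite strand by Fam69a, which was higher in knockout cells with TGF-β (log2 fold change 0.93, adjusted p = 7.93e-05).

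Rps27l, a paralogue of Rps27 and a known p53 target, was the only member higher in knockout cells, at 69.01 and 79.9 against 58.8 and 60.2 CPM with TGF-β (log2 fold change 0.32, SE 0.10, adjusted p = 0.0452). Without TGF-β it stood at 76.4 and 75.9 against 62.4 and 68.4 CPM (log2 fold change 0.22, SE 0.10, adjusted p = 0.189). In both comparisons the knockout libraries were above the parental ones, and 22.4% of its 50-base words occur in other genes, against 65.1% to 93.8% for Rps3a3, Rpl15, Rpl13 and Rpl5. Its call was lost with no filter on low counts, without either TGF-β-treated parental library in turn and without TGF-β-treated knockout replicate 2 (adjusted p from 0.0530 to 0.258).

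**Figure D5:**
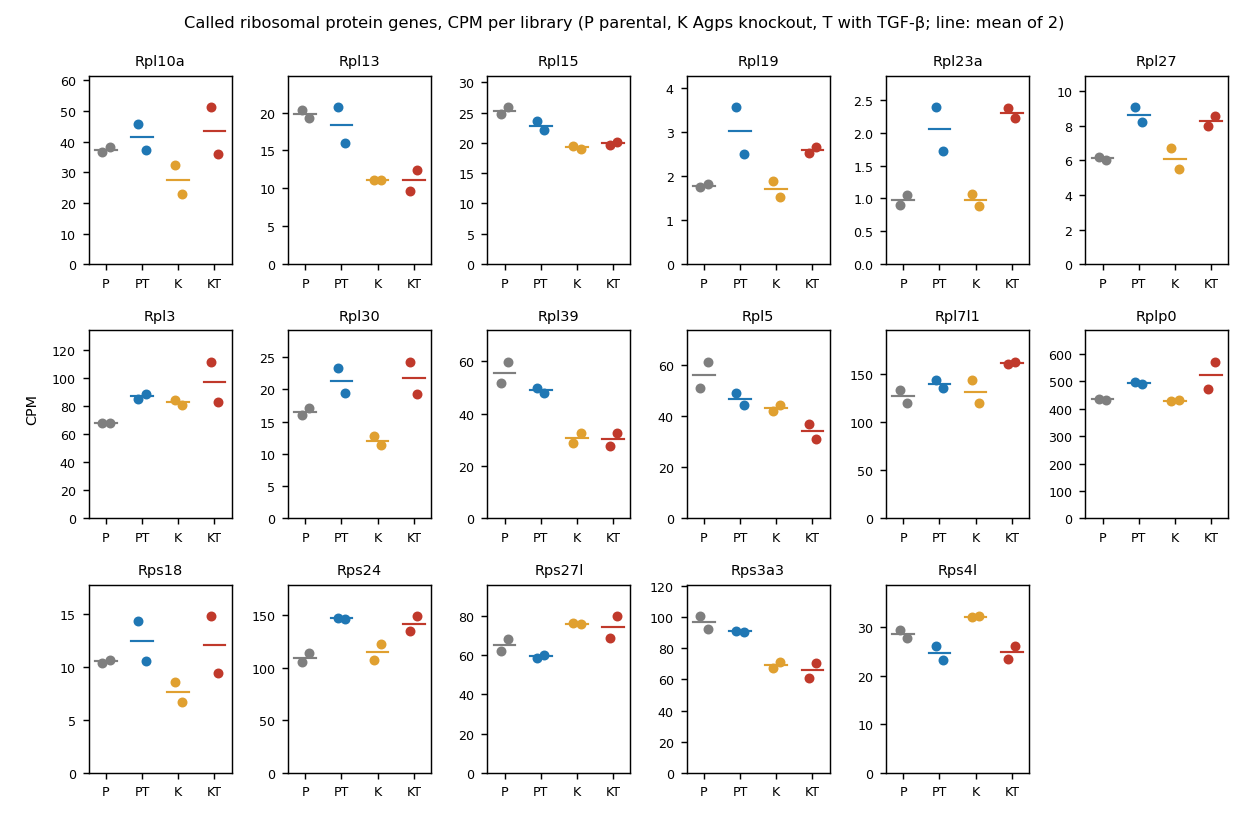
CPM in each library of the 17 members called in any comparison, 1 panel per gene with its own axis from 0; points are libraries and lines the mean of 2 (P parental, PT parental with TGF-β, K Agps knockout, KT knockout with TGF-β). Rpl13, Rpl39 and Rps3a3 are lower in all 4 knockout libraries, and Rps24 and Rpl23a are higher in all 4 libraries with TGF-β than in the untreated ones of their line.

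The members were also grouped by role, with counts to be read against the shares of all genes called, 42.5% and 41.4% with TGF-β in parental and knockout cells and 13.7% and 17.9% between the lines without and with TGF-β. The P stalk, which recruits elongation factors (Rplp0, Rplp1, Rplp2 and Rpl12), had 0 of 4 called with TGF-β in parental cells and 1, Rplp0, in knockout cells, and 0 between the lines. The 5S particle, Rpl5 and Rpl11, had the 1 call of Rpl5 named above, while Rpl11 stood between 4.49 and 6.54 CPM in the 8 libraries. Of 12 genes mutated in Diamond-Blackfan anaemia 11 were tested: Rps24 and Rpl27 rose with TGF-β in parental cells, Rps24 in knockout cells, and Rpl5 was lower in knockout cells with TGF-β. The others of that list had no call, Rps7, Rps19 and Rpl35a among them.

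Some members are paralogues of others, and their counts were set against those of the partner in each library, without adjusting for length, to compare the groups. Rpl22l1 had 0.276 and 0.335 times the CPM of Rpl22 in untreated parental cells, 0.372 and 0.300 with TGF-β, 0.247 and 0.252 in untreated knockout cells and 0.316 and 0.320 in knockout cells with TGF-β. Rpl7l1 had 0.245 to 0.345 times the CPM of Rpl7, and Rps4l 0.174 to 0.267 times that of Rps4x. Rps27l had 21.8 to 48.1 times the CPM of Rps27, a gene of which 98.6% of 50-base words occur elsewhere.

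Rps3a3 had 5.0 and 4.65 times the CPM of its parent gene Rps3a1 in untreated parental cells and 4.20 and 5.13 times with TGF-β. In knockout cells the ratio was 3.11 and 3.30 without TGF-β and 2.69 and 2.63 with it, all below the parental libraries. Rps3a1 itself stood at 20.1 and 19.9 CPM, 21.8 and 17.6, 21.7 and 21.6 and 22.6 and 26.9 in the same order of groups, with no call. The paralogues Rpl3l, Rpl10l and Rpl39l, known from muscle or testis, were too low to be tested.

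Besides the members, 5 further proteins of the ribosome have names outside the pattern. Fau, the precursor of a small subunit protein, rose with TGF-β from 3.53 and 4.33 to 5.88 and 5.66 CPM in parental cells (log2 fold change 0.56, SE 0.19, adjusted p = 0.0324) and from 3.72 and 3.62 to 5.51 and 5.65 in knockout cells (log2 fold change 0.60, SE 0.18, adjusted p = 0.0210). The first call was lost without untreated parental replicate 1 or either TGF-β-treated parental library, and the second without any of the 4 knockout libraries in turn. Rpsa, Rack1 and Rpl36al had no call in any comparison.

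Many of the factors that build ribosomes rose with TGF-β. Of 48 ribosome biogenesis factors 31 rose and 0 fell in parental cells and 34 rose and 0 fell in knockout cells, against 21.3% and 20.9% of all genes higher and 21.2% and 20.6% lower. Their medians were 0.40 and 0.41, against 0.0080 and -0.0002 over all genes. In parental cells Utp20, of the small subunit processome, went from 101 and 81.6 to 180.3 and 169 CPM (log2 fold change 0.93, SE 0.14, adjusted p = 2.02e-04), and Bms1, a GTPase of the same particle, from 134 and 127 to 171 and 186 (log2 fold change 0.46, SE 0.09, adjusted p = 0.00118). In knockout cells Mybbp1a, a nucleolar protein, went from 444 and 369 to 595 and 618 CPM (log2 fold change 0.58, SE 0.10, adjusted p = 7.41e-04), and Eif6, which keeps new large subunits from joining, from 129.7 and 115 to 191 and 229.7 (log2 fold change 0.78, SE 0.14, adjusted p = 9.73e-04). Across the alternatives 17 to 37 ribosome biogenesis factors rose in parental cells, with 17 and 18 without TGF-β-treated parental replicates 1 and 2 and 19 without untreated parental replicate 2. In knockout cells 12 to 39 rose, with 12 without untreated knockout replicate 2 and 17 without TGF-β-treated knockout replicate 1, and none fell in any alternative in either line. A difference between these factors and the ribosomal protein genes was not tested.

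Between the lines, 4 of the biogenesis factors were lower in untreated knockout cells and 5 with TGF-β, and none was higher. These shares, 8.33% and 10.4%, are near the 8.94% and 11.1% of all genes called lower. Nob1, the nuclease that finishes the small subunit RNA, went from 39.2 and 41.4 CPM in parental to 22.4 and 18.5 in knockout cells (log2 fold change -0.98, SE 0.12, adjusted p = 2.87e-04), with Nip7 at -0.83 (adjusted p = 4.16e-04), Utp4 at -0.88 (adjusted p = 0.00233) and Gar1 at -0.41 (adjusted p = 0.0372) on the log2 scale. Nob1, Nip7 and Utp4 lie on chromosome 8, as Rpl13 does, and Gar1 on chromosome 3.

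Of 14 genes of the RNA polymerase I machinery, which makes the large ribosomal RNA, 5 rose and 1 fell with TGF-β in parental cells and 7 rose and 1 fell in knockout cells. The shares called, 42.9% and 57.1%, stand beside 42.5% and 41.4% of all genes, so the first is at the background. The catalytic subunit Polr1a rose from 143 and 120.4 to 216 and 204 CPM in parental (log2 fold change 0.67, SE 0.12, adjusted p = 0.00106) and from 158 and 123 to 237 and 215 in knockout cells (log2 fold change 0.69, SE 0.12, adjusted p = 8.77e-04). Polr1c, shared with RNA polymerase III, fell in both, with log2 fold changes of -0.43 (adjusted p = 0.00658) and -0.34 (adjusted p = 0.0212). Without single libraries the count of RNA polymerase I machinery genes that rose went down to 2 in parental cells (without TGF-β-treated parental replicate 1) and to 3 in knockout cells (without untreated knockout replicate 2 or TGF-β-treated knockout replicate 1).

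Other TOP messages encode translation factors or carry small nucleolar RNAs in their introns. Of 9 RNA host genes of small nucleolar RNAs, 5 rose in parental (55.6%) and 3 in knockout cells (33.3%) and 0 fell, against 21.3% and 20.9% of all genes higher: Snhg5 rose by 0.92 (adjusted p = 4.05e-04) and 0.78 (adjusted p = 0.00119), and Gas5 by 0.60 (adjusted p = 0.00390) and 0.45 (adjusted p = 0.0190). Of 18 translation factors 1 rose in parental cells, Pabpc1 (log2 fold change 0.55, SE 0.10, adjusted p = 9.30e-04), and 6 rose and 1 fell in knockout cells. With 5.56% and 38.9% called, the translation factors were below and near the 42.5% and 41.4% of all genes. Without TGF-β-treated knockout replicate 2 none of the translation factors with TOP mRNAs rose in knockout cells, 1 rose without untreated knockout replicate 2, 2 without either TGF-β-treated parental library and 3 without untreated knockout replicate 1. The host genes that rose were 3 without TGF-β-treated parental replicate 1 in parental cells and 1 without untreated knockout replicate 1 in knockout cells.

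Among 18 regulators of growth and of TOP messages, 3 rose and 5 fell with TGF-β in parental cells and 3 rose and 4 fell in knockout cells. The 44.4% and 38.9% called are near the 42.5% and 41.4% of all genes. Mycn had the largest changes of the list, -1.70 (adjusted p = 1.32e-04) and -2.39 (adjusted p = 5.43e-05), while Myc had -0.04 (adjusted p = 0.875) and -0.09 (adjusted p = 0.719). Of 10 genes of the p53 checkpoint that free ribosomal proteins can trigger, 2 rose and 3 fell in parental cells and 2 rose and 5 fell in knockout cells, 50% and 70% called. Mdm2 rose by 0.58 (adjusted p = 0.00126) and 0.40 (adjusted p = 0.0117), and Sesn2 fell, with -1.19 (adjusted p = 2.40e-04) and -1.04 (adjusted p = 6.11e-04). These small counts moved with single libraries: without one of the compared libraries the TOP mRNA and growth regulators had 0 to 2 that rose and 1 to 5 that fell, and the p53 ribosomal checkpoint genes 0 to 2 and 2 to 5.

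Mitochondrial ribosomal protein genes, the group closest in name and function, had 77 of 78 tested. With TGF-β 3 rose and 13 fell in parental cells (median -0.13) and 3 rose and 6 fell in knockout cells (median 0.0074). Between the lines 1 was higher and 1 lower without TGF-β (median 0.05), and 6 were higher and 1 lower with it (median 0.17). The shares called were 20.8%, 11.7%, 2.60% and 9.09% in this order, against 42.5%, 41.4%, 13.7% and 17.9% of all genes. None was called when the TGF-β changes of the lines were compared, where 2 had an unadjusted p under 0.05 and DESeq2 and limma-voom called 0. Between the lines with TGF-β the count of 7 called was 1 and 0 without TGF-β-treated parental replicates 1 and 2 and 0 without TGF-β-treated knockout replicate 2, and the 16 with TGF-β in parental cells were 5 and 9 without its treated replicates 2 and 1 and 10 without untreated replicate 1. In the same comparisons the cytosolic genes had 5 and 0, 7 and 1, 0 and 4, and 1 and 4 calls higher and lower.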

How the data were processed

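The data are 8 poly(A) RNA libraries (RNeasy extraction, KAPA mRNA HyperPrep). Per the submitters' processing notes the authors used STAR 2.7.1a and featureCounts 1.6.2 on GRCm38 and deposited 1 file of raw counts per gene and library. Neither the strand setting nor the treatment of reads with several matches is stated there. A normalized table from the authors holds a signal equal to the counts divided by 1 number per library (DESeq2 1.26.0 in the notes), which was used only to check the counts.

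Here all 14641 genes that passed edgeR's filterByExpr (minimum count 10) were fitted together with edgeR 4.0.16 in R 4.3.3 (TMM scaling, quasi-likelihood test, 4 group means, 4 residual degrees of freedom). P-values were adjusted over all of these genes with the Benjamini-Hochberg method, with 0.05 as the threshold for a call. CPM use the counts of the tested genes in each library and its TMM factor, shares of counts use raw totals, and RPKM also use the exonic length of GENCODE M21. Genes were assigned by identifier, and 50-base words were compared between GENCODE M21 transcripts. Intervals are 95% intervals of the fit. DESeq2 1.42.0, limma-voom (limma 3.58.1), other scalings, no filter, a fit of the compared groups only, a replicate block and leaving out each library were the alternatives.

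Data were simulated for TGF-β in parental cells over 14641 genes. Of these, 100 were changed by 0.5 on the log2 scale, 100 by 1 and 14441 not at all. The test called 24%, 80% and 0.0485% of them in that order. Far fewer genes changed there than the 42.5% called in the data. The adjusted threshold was thus stricter in the simulation, and these rates need not hold for the data.

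Members and gene lists were chosen with earlier results of these data known. Named with values are, per comparison, the 5 largest rises and falls among called members of average log2 CPM of at least 3, the 5 highest and lowest members, paralogues and their partners, the role lists, up to 4 called genes of each pathway list, and the 5 members most and least like the median profile. Results for some genes are not reported here. Rpl23a, Rpl19 and Rpl27 (called, but lower), Rps10, Rps29, Rpl34, Myc and the genes overlapping members were named after their values were seen.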

Additional observations from a re-analysis of the deposited data

How the results depend on the processing

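The calls of members in the main fit, and those of Agps between the lines, were followed under the alternatives. Of these values 344 kept the call and direction, 64 kept the direction and lost the call, and 0 reversed. Agps kept its call in all 17 alternatives of each comparison. The other named genes are not in these counts, nor are members without a call. The cause of the shifts below was not tested, except where fewer genes or libraries were used. Members called with TGF-β in parental cells were 5 as reported, 9 with upper quartile scaling, 9 with no filter and 2 with DESeq2. All genes called were 6228, 6277, 6607 and 5260 in the same order. For untreated knockout against parental, members called were 4, and 8 with no filter, and all genes called were 2000 and 2490. Without the members of 50% shared words or more, chosen after seeing the data, the counts of members called were 1, 4, 1 and 2 in the order reported. Leaving out each library gave 2 to 7, 3 to 9, 3 to 5 and 2 to 5 members called, and a member median with TGF-β in knockout cells from -0.0939 (without TGF-β-treated knockout replicate 2) to 0.2104. In such fits a lone sample is assumed to vary like the other groups, and the count of all genes called moved as well.

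Mitochondrial ribosomal protein genes called were 16 with TGF-β in parental cells (10 with DESeq2, 5 to 21 over left-out libraries). Untreated between the lines they were 2, against 1 with library totals only, with TMM without the members or with no filter, 0 with DESeq2 or the compared groups only, and 0 to 1 over left-out libraries. With TGF-β between the lines they were 7, 14 with the compared groups only, and 0 to 10 over left-out libraries. Genes called over all pathway lists were 12 with no filter against 7 untreated between the lines. With TGF-β between the lines they were 14, 22 with no filter and 24 with the compared groups only, and for the difference of the TGF-β changes 0, and 2 with no filter. Left-out libraries gave 30 to 62 with TGF-β in parental cells, 28 to 71 in knockout cells and 4 to 18 between the lines with TGF-β. The members' mean share of counts was 0.837% and 0.802% in parental cells without and with TGF-β when mitochondrially encoded counts were left out. With the 5 proteins outside the pattern it was 0.892% and 0.842%, and 0.921% in untreated knockout cells.

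Samples with the same replicate number deviated together weakly (correlations 0.0218 to 0.308 over 6 pairs of groups), so the numbers were not taken as pairs. With a replicate block, members called were 10, 13 and 8 with TGF-β in parental cells, in knockout cells and untreated between the lines. All genes called were then 6864, 6691 and 2659, against 6228, 6064 and 2000 without the block. Mitochondrial genes called with the block were 25 and 16 with TGF-β and 11 between the lines with it, and pathway genes 11 untreated between the lines and 1 for the difference of the TGF-β changes. With 2 libraries a group, and members such as Rpl24 at 8 to 20 counts, small changes could not be resolved. The planned comparison of words with a whole genome was not run and was made on transcripts.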

Other observations

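Several members are in common use as reference genes for quantitative PCR, and these were gathered after the results were seen. Rpl13a stood at 44.7 and 52.02 CPM in untreated parental cells, 43.7 and 45.3 with TGF-β, 47.04 and 55.5 in untreated knockout cells and 42.8 and 45.6 in knockout cells with TGF-β, with no call. Rpl32 stood at 133 and 132, 148 and 117, 145 and 154 and 136 and 194 CPM in the same groups, also with no call. Of the others in such use, Rplp0 and Rps18 were called with TGF-β in knockout cells, Rpl19 and Rpl27 with TGF-β in parental cells and Rpl13 between the lines, as described above.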
